A study of Mus musculus with 13 samples.

Results

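The cells described here are erythroid cells of the mouse fetal liver with little adult globin RNA, taken from 1 single-cell library of F4/80+ cells. A cell was called erythroid when 10 erythroid genes (Gata1, Alas2, Ank1, Rhag, Rhd, Slc4a1, Car2, Ermap, Tspan33 and Cpox) together reached at least 10 counts per 10000 counts of the cell, and the complement genes C1qa, C1qb and C1qc of macrophages together stayed under 10 per 10000. The members are the erythroid cells whose share of counts from the adult globin genes Hba-a1, Hba-a2, Hbb-bs and Hbb-bt lay below the erythroid median of 16.8%. Of 3093 cells with at least 200 genes, 580 were erythroid and 290 were low-globin members, or 9.38% (exact binomial interval 8.37 to 10.5%). Members were thus selected on measured RNA of the 10 genes, C1q and adult globin. The other 290 erythroid cells are called high-globin below. They are compared with 1663 cells at or over the C1q limit, called C1q-positive, and 850 other cells.

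Red cells of the fetus are made in the liver, where progenitors that depend on the kinase receptor Kit and then on the erythropoietin receptor divide, fill with hemoglobin and lose their nucleus. Before hemoglobin fills the cell, an erythroid precursor is large, has prominent nucleoli and makes ribosomes at a high rate, and its transcription is directed by GATA1 and by EKLF, the zinc finger factor encoded by Klf1. Late precursors mature in contact with macrophages that carry the surface protein F4/80.

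The samples come from a study of macrophages that express EKLF. Their RNA was measured in F4/80+ fetal liver cells at E13.5. The labels give strain C57BL/6 for every sample, and the study's reagent table gives the 129S4/SvJae background for the EKLF-null line. The single-cell library is wild type and comes from 2 pooled littermate embryos. These cells were selected with beads and an antibody against F4/80, not sorted, in the presence of a peptide that blocks the hold of macrophages on erythroid cells, and were captured with the Chromium V3 kit. The 12 bulk libraries were made from sorted F4/80+ cells, 3 libraries in each of 4 groups: wild type (EKLF+/+), EKLF-null (EKLF-/-), and the GFP-positive (EKLF/GFP+) and GFP-negative (EKLF/GFP-) cells of wild-type embryos with the pEKLF-GFP transgene, in which Klf1 regulatory sequence drives the reporter. RNA of the EKLF/GFP+ libraries was made with the Agilent Nanoprep kit and that of all other bulk libraries by precipitation from Trizol, so that RNA kit and GFP group cannot be told apart. With 1 single-cell sample there is no replicate, and no test was made between groups of cells. Intervals cover counting error only. The paper assigns the clusters with Klf1 RNA in the single-cell library to macrophages that express EKLF. For this it also imaged single fetal liver cells positive for F4/80, Add2 protein and the reporter. The name erythroid used here rests on RNA alone, and the paper's assignment was not tested.

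Members were deeply sequenced cells. Their median was 43468 counts and 5634 genes per cell, against 19894 counts and 2141 genes in high-globin cells and 14099 counts and 3798 genes in C1q-positive cells. Counting only RNA that is not globin, the medians were 41874, 6684 and 13764 counts. Every cell was also thinned at random to 3000 counts, globin included, with 1 member, 0 high-globin and 6 C1q-positive cells too shallow to include. Members then showed 1268 genes per cell at the median, high-globin cells 556 and C1q-positive cells 1402. High-globin cells kept fewer counts outside globin, so depth outside globin was not made equal. Mitochondrial transcripts made up a median of 4.09% of counts in members, 1.41% in high-globin cells and 4.38% in C1q-positive cells. A few members were rich in them, with a 95th percentile of 19.9% and a highest value of 55.97%.

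Adult globin, which chose the members, ranged from 0.149% to 16.8% of counts in them, with quartiles of 0.426, 1.15 and 4.47%. High-globin cells had a median of 67.1%. Globin RNA was also found in cells that are not erythroid, with medians of 0.470% in C1q-positive and 0.351% in other cells. Of the members, 135 lay under 1%, and 86 lay at or below the C1q-positive median, a level at which globin made by the cell cannot be told apart from free globin RNA in the droplet.

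The limits fall inside continuous distributions. At the globin limit, the nearest members had 16.6, 16.7 and 16.8% and the nearest cells outside 16.8, 16.9 and 17.2%. At the limit of the 10 genes, the nearest members had 10.2, 10.2 and 10.2 per 10000 and the nearest cells outside 9.15, 9.16 and 9.63. At the C1q limit, the nearest members had 9.41, 9.48 and 9.82 per 10000 and the nearest cells outside 10.1, 10.1 and 10.3. Of the members, 8 were within 2 per 10000 of the gene limit, 8 had C1q over 8 per 10000, and 13 were within 2 points of the globin limit. The globin limit is a median and moves with the other limits. Without a C1q limit it fell to 7.31%, with 356 members of which 249 were shared with the 290, and with a limit of 20 per 10000 for the 10 genes it was 22.04%, with 250 members of which 225 were shared. With the other settings tried for the rule, 270 to 287 were shared. Leaving out cells marked by Scrublet changed nothing, since no cell was marked.

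Of the 4 markers of the cells, Klf1 and Epor were not used by the rule, while Gata1 and Car2 are among its 10 genes, so that their levels are partly set by it. Levels are given as counts per 10000 counts that are not globin, summed over the cells of a group. Klf1 stood at 1.52 (1.45 to 1.60) in members (exact Poisson interval), 2.79 (2.60 to 3.00) in high-globin cells and 0.0611 (0.0525 to 0.0707) in C1q-positive cells. Epor, the erythropoietin receptor, stood at 0.825 (0.774 to 0.878), 1.25 (1.12 to 1.39) and 0.138 (0.125 to 0.152). Both genes were thus far higher in members than in C1q-positive cells, at 24.9 and 5.98 times their level. Gata1, the factor that directs red cell genes, had 1.05, 1.59 and 0.0574 per 10000, and the carbonic anhydrase gene Car2 12.8, 44.5 and 0.765.

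Most members held a count of each marker. Klf1 was found in 87.9% (83.6 to 91.4%) of members, 75.2% (69.8 to 80.04%) of high-globin cells and 5.83% (4.76 to 7.07%) of C1q-positive cells (exact binomial intervals), at the median depths given above. At 3000 counts per cell the shares were 36.3, 26.9 and 1.69%. For Gata1 the shares were 90.3, 58.97 and 6.19%, and 23.2, 17.2 and 1.69% after thinning. All 4 markers, of which the rule used 2, were found together in 227 members, or 78.3%, in 39.7% of high-globin cells and in 1.32% of C1q-positive cells.

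Macrophage RNA was low in members, which is partly set by the rule, since it required little C1q and left out 133 cells that passed the limit of the 10 genes. Adgre1, which encodes F4/80, stood at 0.183 per 10000 in members, 0.460 in high-globin and 5.34 in C1q-positive cells. It was counted in 47.9, 31.7 and 95.4% of them, at the unequal median depths given above. The CSF1 receptor Csf1r (0.278 against 7.35 in C1q-positive cells), the adhesion molecule Vcam1 (0.212 against 5.93) and the scavenger receptor Marco (0.385 against 7.89) were as low. Summed over 16 macrophage genes, members had 6.10 per 10000, high-globin cells 17.9 and C1q-positive cells 106. The most abundant of them in members was the lysosomal protease Ctsb, at 2.39 against 32.9. How much of this RNA was free in the droplets was not tested.

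Genes of other lineages were also scarce. The 12 megakaryocyte genes summed to 1.57 per 10000 in members and 16.9 in other cells, and the collagen receptor Gp6 was counted in 0 of 290 members, which allows a share of up to 1.03% of cells with a count and does not limit the share that express it. Of the members, 9 lay in a cluster led by megakaryocyte genes, as described below. The 8 mast cell or basophil genes summed to 0.0153 in members, with no count of Prss34, Cma1, Fcer1a and Tpsb2, and the 8 hepatoblast genes to 1.68 against 71.7 in other cells. Neutrophil genes summed to 5.33 against 241, led by S100a8 at 1.87, and 23 members carried at least 5 per 10000 of them. Endothelial genes summed to 0.860, nearly all from Egfl7, a secreted vascular protein, which stood at 0.740 in members, 0.126 in high-globin, 0.0988 in C1q-positive and 0.863 in other cells and was counted in 81.03% of members, while the vessel gene Cdh5 stood at 0.0586 in members against 1.74 in C1q-positive cells. Monocyte, mesenchymal and lymphoid genes summed to 0.253, 0.0204 and 0.0272.

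A clustering of all cells, which used every gene and so is no test of the rule, split the members into 3 main sets. The largest set, of 169 members, belonged to a cluster led by Tmem56, Mns1 and Bcl11a, had a median globin share of 0.559% and stood at 26.2 per 10000 for the 10 rule genes at the median. Next came 77 members in a cluster led by Mrap, Cited4 and Tmem56, with 5.02% globin and 45.9 per 10000. A further 22 members, with 13.4% globin and 62.4 per 10000, shared a cluster led by Hemgn, Sptb and Cd24a with 162 high-globin cells. These 3 clusters form a sequence of rising globin. The last 22 members were spread over other clusters, 9 of them in a cluster led by the megakaryocyte genes Treml1, Ppbp and Gp5, and had a lower median of 9741 counts and a neutrophil sum of 83.9 per 10000. The doublet caller Scrublet marked 0 of 3093 cells. Its automatic limit of 0.472 lay above the highest score of any cell, 0.421, so the number of doublets cannot be read from it.

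**Figure D1:**
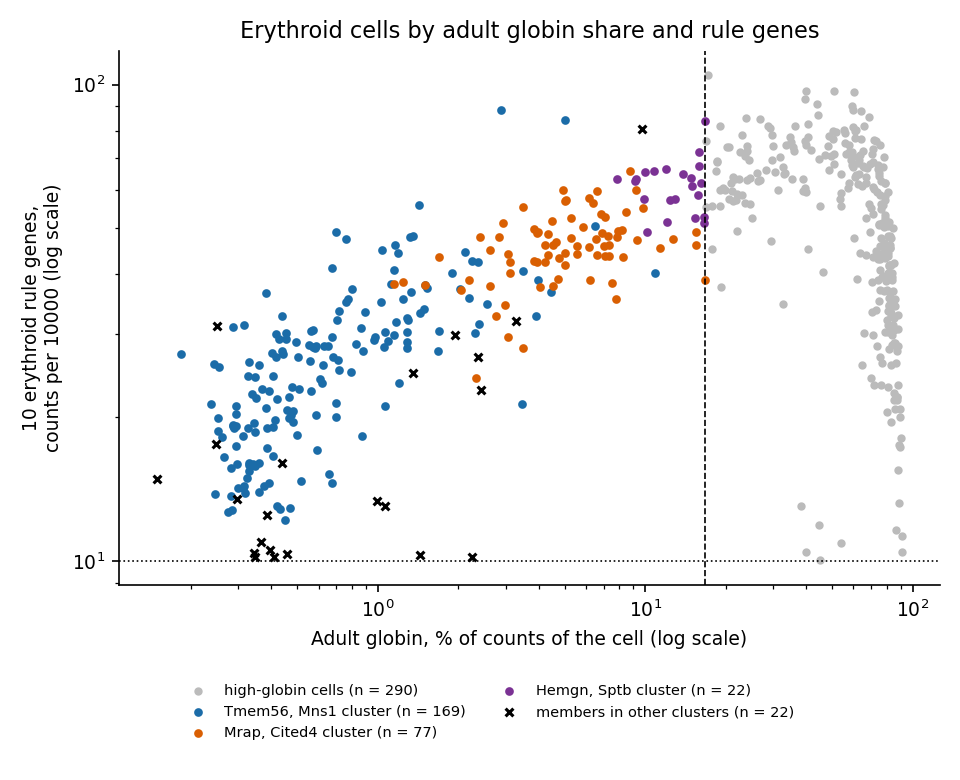
Each point is 1 erythroid cell, with its share of counts from adult globin (x axis, %, log scale) against the summed counts of the 10 rule genes per 10000 counts (y axis, log scale). Members lie left of the dashed line at 16.8% and are coloured by cluster, the dotted line marks the limit of 10 per 10000, and among members the rule genes are higher where globin is higher.

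The comparison of members with high-globin cells asks what else differs between erythroid cells with less and with more adult globin RNA; that they are stages of 1 course was not tested. The rule used this contrast, so the values are a description. Of 1733 genes with at least 1 count per 10000 in either group, 226 (13.04%) were at least 2-fold higher in members and 346 (19.97%) at least 2-fold higher in high-globin cells. The median log2 ratio of all 1733 genes was 0.15. Scaled to all counts, globin included, each log2 ratio is higher by 1.19; on that scale 1442 genes reached 1 per 10000, their median log2 ratio was 1.48, and the counts were 1051 and 70. With the lowest against the highest of 3 equal sets of globin share the counts were 582 and 585, with a minimum level of 0.2 per 10000 they were 861 and 797, and with a minimum of 5 they were 26 and 86. Without the cells of a cluster led by embryonic globin genes, which holds 31 high-globin cells and no member, they were 224 and 334.

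Members stood out by RNA for building ribosomes. Among 21 ribosome assembly genes, all 14 that reached 1 per 10000 were at least 2-fold higher in members, with a median log2 ratio of 1.85. The minimum favours genes that are high in either group, since 14 reached it in members and 4 in high-globin cells; without a minimum, all 21 were at least 2-fold higher in members. Their sum was 109 per 10000 in members, 25.2 in high-globin, 39.1 in C1q-positive and 52.2 in other cells. Npm1, the nucleolar histone chaperone nucleophosmin, was the most abundant at 50.9 per 10000 in members and 8.60 in high-globin cells (log2 ratio 2.57). Ncl, the nucleolar protein nucleolin, stood at 21.5 and 6.14 (1.81), and Gar1, a core protein of the particles that modify ribosomal RNA, at 1.47 and 0.255 (2.53). The direction of the list was the same with every setting tried, with medians from 1.81 to 3.04.

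The genes with the 15 largest ratios toward members hold further nucleolar proteins. Npm3, a relative of nucleophosmin (3.18), Lyar (2.42) and Wdr43 (2.31), both nucleolar factors of ribosome production, were among them, as were Gar1 and Npm1. The spermidine synthase Srm (2.54), the folate enzyme Mthfd1 (2.36) and the import pore subunit of mitochondria Tomm5 (2.38) also belong to the 15. Rangrf, a regulator of the transport factor Ran (3.17), the chromatin protein Hmga1 (3.10), the snoRNA host gene Snhg4 (3.04) and the translation factor relative Bzw2 (2.41) were also among them, together with Gm6477 (2.59) and the chaperonin Hspd1 (2.39).

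Chaperones formed a second group. Of 15 chaperone genes, 8 were at least 2-fold higher in members and 0 in high-globin cells, with a median log2 ratio of 1.17 and sums of 169.8, 71.3 and 98.9 per 10000 in members, high-globin and C1q-positive cells. The mitochondrial pair Hspd1 and Hspe1 stood at 14.3 and 23.4 in members and 2.73 and 5.41 in high-globin cells. The cytosolic Hsp90ab1 and Hsp90aa1 stood at 34.3 and 33.1 against 13.3 and 13.6. Hspa5, the chaperone of the secretory pathway, picked after its values were seen, was an exception with 2.78 and 3.12, a ratio of -0.17 that is 1.02 per 10000 of all counts.

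Ribosomal proteins themselves made up much of the members' RNA. The 84 genes of cytosolic ribosomal proteins summed to 3130.2 per 10000 in members, 2505 in high-globin and 2082 in C1q-positive cells. Per cell, the medians were 3156, 1639 and 2079, a wider difference from high-globin cells than in the sums, to which deep cells add more. Of 79 at 1 per 10000 or more, 1 was at least 2-fold higher in members, and the median log2 ratio was 0.34. Per 10000 of all counts 78 of the 79 were, with a median of 1.53. Of all genes on that scale 1051 of 1442 were, with a median of 1.48. Among the 15 most abundant genes of members, 9 encode ribosomal proteins, led by Rplp1 at 109.7 and Rps12 at 102, 3 are mitochondrial transcripts, 2 are adult globins and 1 is the histone gene Hist1h2ap. The size of the difference in glycolysis genes depends on the scale, with sums of 43.1 and 39.2 per 10000, a median log2 ratio of 0.53 and 1 gene 2-fold higher in members, Ldha, the lactate dehydrogenase of fast-growing cells (6.02 against 2.23). Per 10000 of all counts the sums were 41.9 and 16.7, the median was 1.72 and 9 of 11 genes were at least 2-fold higher in members. These values stand beside the 1051 of 1442 genes and the median of 1.48 given above for all genes. In the other direction 2 glycolysis genes, named after their values were seen, were at least 2-fold higher in high-globin cells on both scales, the glucose transporter Slc2a1 (0.2503 against 4.398) and Bpgm, which makes the hemoglobin ligand of red cells (0.370 against 4.47).

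Genes of the mature red cell were lower in members, list by list. All 20 red cell membrane genes at 1 per 10000 or more were at least 2-fold higher in high-globin cells, among them 6 that the rule used. This minimum was reached by 10 of them in members and 20 in high-globin cells; without it, 20 of 22 were at least 2-fold higher in high-globin cells and 0 in members. The list had sums of 24.6 in members and 109 in high-globin cells. The spectrin gene Sptb stood at 0.964 and 5.16. Late maturation genes showed a wider gap, with 14 of 14 (4 at the minimum in members) and, without a minimum, 18 of 18 with over 3 counts in either group at least 2-fold higher in high-globin cells, a median log2 ratio of -3.02 and sums of 33.00 and 159. In this list Prdx2, the peroxiredoxin of red cells, stood at 23.5 and 90.95. Heme synthesis genes summed to 35.6 and 104, with 9 of 10 at least 2-fold higher in high-globin cells (7 at the minimum in members and 10 in high-globin cells; 10 of 12 without it), and iron genes to 111 and 317, with 8 of 9 (7 and 9 at the minimum; 8 of 14 without it). These counts are smaller per 10000 of all counts, where of the same genes 9 of 20 membrane, 11 of 14 late maturation, 2 of 10 heme and 2 of 9 iron genes were at least 2-fold higher in high-globin cells, 1, 0, 2 and 2 were higher in members by any amount, and the sums in members and high-globin cells were 23.9 and 46.4, 32.1 and 67.9, 34.7 and 44.3, and 108 and 135.

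The heme list holds 2 genes of the rule, Alas2 and Cpox, so that its level is partly set by the rule. Members had 35.6 per 10000 over the list where C1q-positive cells had 7.95, and Cpox alone gave 8.03 of the members' sum. Its genes were not even in members. Alas2, the erythroid enzyme of the first step, stood at 0.294 against 13.9 in high-globin cells and 0.183 in C1q-positive cells, while the later enzymes Alad (4.50 against 11.1) and Cpox (8.03 against 17.4) were closer between both kinds of erythroid cell (log2 ratios -1.31 and -1.12, which become -0.12 and 0.07 per 10000 of all counts). The transferrin receptor Tfrc, which brings in iron, stood at 3.40 and 10.05. Embryonic globin summed to 1.79 per 10000 in members, 20.5 in C1q-positive, 169 in high-globin and 90.1 in other cells. Per cell, the medians were closer, at 1.36, 1.82, 7.82 and 1.38. The median log2 ratio of members over high-globin cells was -6.52, and -2.79 with a limit of 20 per 10000 for the rule genes. A cluster of 73 cells led by genes including Hbb-bh0, Hbb-y and Hba-x holds 31 high-globin, 5 C1q-positive and 37 other cells, and no member.

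The largest ratios toward high-globin cells beside globin and Alas2 were those of Slfn14, an endoribonuclease bound to ribosomes (-5.59), Fn3k, a kinase that repairs glycated protein (-5.53), the corepressor Runx1t1 (-5.36), the adaptor Grap2 (-5.30), the poly(A) polymerase Tent5c (-5.20), Gm12918 (-5.19) and Fam214b (-5.18). Each stood under 0.2 per 10000 in members.

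Factors and receptors of erythroid identity were mixed. Of 15 erythroid transcription factors at 1 per 10000 or more, 8 were at least 2-fold higher in high-globin cells and 1 in members. The minimum was reached by 8 in members and 13 in high-globin cells, and without it the counts were 9 and 2 of 20. Per 10000 of all counts they were 4 and 2 of the 15. The median log2 ratio of -1.03 turned to 0.16 per 10000 of all counts for the same 15 genes. For the 10 genes at the minimum on that scale it was 0.27. The one at the minimum that was higher in members was Bcl11a, the repressor of embryonic globin genes, at 1.86 per 10000 against 0.384 in high-globin and 0.0900 in C1q-positive cells (log2 ratio 2.28). It was counted in 89.7% of members and 15.5% of high-globin cells, at the unequal median depths given above. The GATA1 partners Zfpm1 (2.35 and 4.43) and Lmo2 (2.13 and 4.05) were lower in members per 10000 counts that are not globin and higher per 10000 of all counts (log2 ratios -0.91 and -0.93, which become 0.28 and 0.26). The 4 markers of the cells flipped in part as well, since Klf1, Gata1 and Epor had log2 ratios of -0.87, -0.60 and -0.60 on the first scale and 0.32, 0.59 and 0.59 on the other, while Car2 had -1.80 and -0.61.

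The progenitor genes Myb and Kit, picked after their values were seen, as was Gata2, were higher in members than in high-globin and C1q-positive cells, but not than in other cells. Myb, the factor that keeps progenitors dividing, stood at 0.659 (0.613 to 0.707) per 10000 in members, 0.0323 in high-globin, 0.0611 in C1q-positive and 1.07 in other cells, and was counted in 55.2% (49.2 to 60.99%) of members. Kit, the stem cell factor receptor, stood at 0.252 (0.224 to 0.282), 0.00718, 0.0146 and 0.266. It was counted in 37.6% (31.99 to 43.4%) of members, 0.690% of high-globin and 1.56% of C1q-positive cells, at the unequal median depths given above. Gata2, the factor of earlier progenitors, was near absent at 0.0187 in members, 0.0268 in C1q-positive and 0.405 in other cells. Among the early erythroid genes, 3 of 8 at 1 per 10000 or more were at least 2-fold higher in high-globin cells and 1 in members, the membrane traffic gene Vamp5, picked after its values were seen (3.04 against 1.36), with a median log2 ratio of -0.83 that turns to 0.36 per 10000 of all counts. Without a minimum, 5 of 18 were at least 2-fold higher in high-globin cells and 4 in members.

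Genes of S phase were higher in sum in members than in C1q-positive and other cells. S phase genes summed to 42.3 per 10000 in members, 49.95 in high-globin, 19.4 in C1q-positive and 22.7 in other cells, led by the replication clamp Pcna at 4.82. Their direction depends on the summary. Per cell, the medians were 43.2 in members and 20.2 in high-globin cells. The median log2 ratio of -0.15 turned to 1.08 per 10000 of all counts, 0.48 with means of cells, 0.13 with a limit of 20 per 10000 for the rule genes, and 0.67 for the lowest against the highest of 3 equal sets of globin share. Mitosis genes summed to 34.8 in members, 82.1 in high-globin, 23.9 in C1q-positive and 28.9 in other cells. Of 18 at the minimum, 6 were at least 2-fold higher in high-globin cells, with a median log2 ratio of -0.89. Per 10000 of all counts 0 of the 18 were, and their median turned to 0.30, or 0.27 over the 14 at the minimum on that scale. The proliferation antigen Mki67 (4.54 and 17.96) and the ubiquitin enzyme Ube2c (4.01 and 15.99) were among the 6. No cell was assigned to a phase.

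Among themselves, members were ordered by their adult globin share and split at its quartiles into sets of 73, 72, 72 and 73 cells, with median shares of 0.329, 0.642, 2.31 and 7.81%. Median counts per cell were 55620, 44304, 40707 and 35448, so depth is lower where globin is higher, and its part in the sums was not tested. Along this order, ribosome assembly genes summed to 143, 119.7, 92.9 and 60.3 per 10000. Chaperones summed to 196, 177, 158 and 132. Both lists were thus lower in each next set, and lower again in high-globin cells, at 25.2 and 71.3. Ribosomal protein genes stayed within 3044 to 3278.

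Red cell genes took the opposite course. Heme synthesis genes summed to 20.9, 31.03, 42.2 and 57.6 per 10000 over the 4 sets, membrane genes to 13.8, 19.8, 28.4 and 43.7, late maturation genes to 19.97, 27.9, 38.2 and 54.4 and iron genes to 75.2, 97.4, 127 and 166. Each of these lists was higher in each next set on both scales. Per 10000 counts that are not globin each was highest in high-globin cells, but per 10000 of all counts heme synthesis genes were highest in the fourth set (52.5 against 44.3 in high-globin cells), as were iron genes (151 against 135), while membrane genes (39.8 against 46.4) and late maturation genes (49.6 against 67.9) were not. S phase genes went from 34.8 to 54.7 across members and stood at 49.95 in high-globin cells, whereas mitosis genes went from 28.4 to 46.2 and on to 82.1 (per 10000 of all counts, 42.1 in the fourth set and 35.00), and the median log2 ratio against high-globin cells turns per 10000 of all counts for both lists. The transcription factor list changed little within members, from 17.8 to 20.7, as did Epo and Kit signalling genes, from 3.51 to 3.89.

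**Figure D2:**
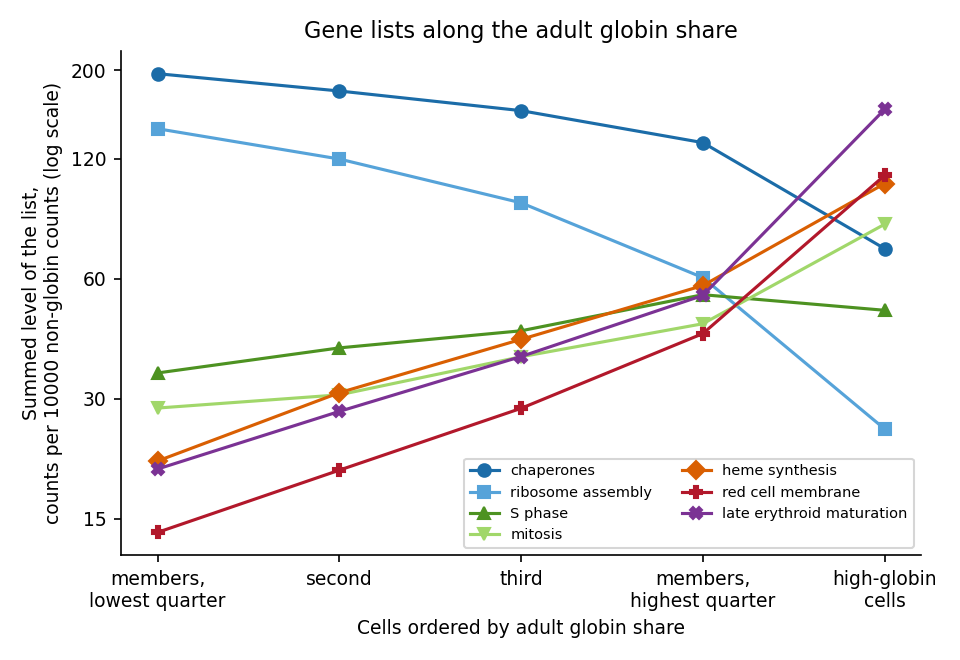
Summed level of 7 gene lists (y axis, counts per 10000 counts that are not globin, log scale) in the 4 sets of members ordered by adult globin share and in the 290 high-globin cells (x axis); each point is 1 sum over all cells of a set. Ribosome assembly runs from 143 down to 25.2 and late maturation from 19.97 up to 159; per 10000 of all counts, the median log2 ratio of members over high-globin cells turns from -0.15 to 1.08 for S phase and from -0.89 to 0.27 for mitosis, and the last step turns from a rise to a fall for heme synthesis (52.5 to 44.3) and mitosis (42.1 to 35.00).

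Single genes mark both ends of the members. Of 1609 genes at 1 per 10000 or more in the first or the fourth set, 111 were at least 2-fold higher in the first and 111 in the fourth. Myb stood at 1.42 in the first set and 0.0386 in the fourth, and Cdk6, a cell cycle kinase of progenitors, at 1.49 and 0.150. The non-coding gene Gm15915 (1.33 and 0.0215), the actin-binding gene Tagln2 (1.59 and 0.120) and Npm3 (4.23 and 0.817) went the same way. At the other end, beside globin and rule genes, stood the ubiquitin ligase Trim10 (0.0566 and 1.31), the phosphatase Cdc25b (0.0643 and 1.19), the iron importer of mitochondria Slc25a37 (0.404 and 5.01) and the nuclear factor Hemgn (0.630 and 5.33). These genes were picked after their values were seen, from those with large ratios.

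Genes high in members were also read for sequence shared near their starts, in RefSeq promoters of build GRCm38.p6 that run from 250 bases before to 50 after a gene's start. The palindrome CACGTG, the E-box that MYC and related factors can bind, was searched, and it reads the same on both strands. It was in 7.15% of all 32851 promoters, in 11.8% of those of the 1733 genes compared, of which 1384 matched, in 14.5% (33 of 228 promoters) for the 226 genes higher in members, of which 195 matched, and in 9.80% for the 346 genes higher in high-globin cells, of which 258 matched. CCACACCC, a form of the CACCC box that EKLF can bind, was searched on both strands and was in 3.56% of all promoters, 3.38% for the genes compared, 2.63% for genes higher in members and 3.46% for genes higher in high-globin cells. A match is a description of sequence, not a binding site. Shown for 3 named genes higher in members are 1 E-box each, in capitals (the Ldha promoter holds 2), and 40 bases on each side, written along the gene's strand, from chr1:55088278-55088363 (minus strand), chr12:36156871-36156956 (minus strand) and chr7:46845716-46845801 (plus strand).
Hspd1: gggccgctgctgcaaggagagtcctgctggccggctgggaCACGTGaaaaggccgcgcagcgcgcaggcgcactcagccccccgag
Bzw2: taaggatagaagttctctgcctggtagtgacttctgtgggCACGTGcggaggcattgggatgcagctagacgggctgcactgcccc
Ldha: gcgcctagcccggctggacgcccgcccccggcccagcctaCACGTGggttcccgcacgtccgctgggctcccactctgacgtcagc

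The bulk libraries are samples that the rule did not use, and they show how the genes of these cells behave in F4/80+ cells that lack EKLF or that carry the EKLF reporter. Counts on genes per library ran from 10695514 to 15362161 in EKLF+/+ and EKLF-/- and from 22723279 to 28736396 in the GFP groups. The libraries hold many cell types, so that fewer erythroid cells and less RNA per erythroid cell cannot be told apart. Klf1 itself stood at 58.7, 64.2 and 57.1 CPM (counts scaled to library size) in EKLF-/- and 362, 305 and 376 in EKLF+/+ libraries, and at 101, 90.2 and 87.3 in EKLF/GFP+ and 34.6, 45.7 and 28.6 in EKLF/GFP- libraries. Its order fits the labels in all 12 libraries, with no overlap between groups (log2 fold change -2.53, SE 0.12, adjusted p = 7.22e-06 for EKLF-/- against EKLF+/+ and log2 fold change 1.35, SE 0.16, adjusted p = 0.000316 for EKLF/GFP+ against EKLF/GFP-, edgeR quasi-likelihood test with Benjamini-Hochberg adjustment, 3 libraries per group).

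Libraries of a group were not alike in all respects. Counts of 4 genes of the Y chromosome were 209, 195 and 0.160 CPM in EKLF+/+ replicates 1, 2 and 3, 0.288, 164 and 0.238 in EKLF-/-, 1.81, 472 and 439.7 in EKLF/GFP+ and 459, 376 and 1.14 in EKLF/GFP-. Each group thus holds libraries with and without Y-linked RNA. EKLF-/- replicate 2 stood apart in several lists. Sums of ribosomal protein genes were 62548, 101049 and 72184 CPM in EKLF-/- and 58299, 56668 and 69627 in EKLF+/+ libraries, and those of membrane genes 8449, 5596 and 7549 and 14506, 14326 and 16074. Its neutrophil genes were the highest, in sums that were 7835, 15383 and 9549.8 CPM in EKLF-/- and 5859, 7353 and 5693 in EKLF+/+ libraries, with 6 of 9 genes called higher in EKLF-/-, but 1, 1 and 0 without EKLF+/+ replicate 1, 2 or 3 and 4 without EKLF-/- replicate 3. In the GFP groups these sums were 476, 647 and 758 in EKLF/GFP+ and 4215, 4543 and 4874 in EKLF/GFP-, with 9 of 9 genes lower in EKLF/GFP+. Other lists moved in EKLF-/- as well by edgeR, against 9.72% of all genes higher and 10.6% lower. Lower were 5 of 7 endothelial genes (4 or 5 with any library left out), 4 of 5 mesenchymal genes (1, 0 and 2 without EKLF+/+ replicate 1, 2 or 3, and 1 and 0 without EKLF-/- replicate 2 or 3) and 4 of 15 macrophage genes, with 1 higher (2 lower without EKLF+/+ replicate 1, 2 or 3 and 1 without EKLF-/- replicate 3). Of 15 glycolysis genes, 10 were higher and 3 lower, with 4, 4 and 5 higher without EKLF+/+ replicate 1, EKLF+/+ replicate 3 and EKLF-/- replicate 3. The part of cell content in the bulk results was not tested.

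Genes of both kinds of erythroid cell were looked up in the libraries without EKLF; the difference between the 2 gene sets was not tested. Of the 226 genes at least 2-fold higher in members, 220 were tested, and 14 (6.36%) were higher and 16 (7.27%) lower in EKLF-/-, against 9.72% and 10.6% of all 12753 genes tested. Their median log2 fold change was 0.07, where that of all genes was 0.02. Of the 346 genes higher in high-globin cells, 322 were tested, and 31 (9.63%) were higher and 112 (34.8%) lower, with a median of -0.29. Without globin and rule genes, 104 of 308 were lower. These counts lean on single libraries. Without EKLF+/+ replicate 1, 2 or 3, or EKLF-/- replicate 3, the genes of members were called higher in 1, 2, 2 and 1 cases and lower in 2, 8, 5 and 2, without EKLF-/- replicate 1 they were called higher in 35, and without EKLF-/- replicate 2 lower in 28. Genes of high-globin cells were called higher in 13, 14, 13 and 15 cases without the same 4 libraries, and lower in 79 to 138 whichever library was left out. All genes together gave 1239 higher and 1356 lower calls, and 346, 417, 370 and 426 higher and 576, 609, 632 and 575 lower calls without these 4 libraries.

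Ribosome assembly genes were called in 1 direction and chaperones in neither. Of 21 ribosome assembly genes, 0 were higher and 3 (14.3%) lower in EKLF-/- by edgeR, against 10.6% of all genes lower, with a median log2 fold change of -0.16; at an unadjusted p under 0.05 the counts were 0 and 9, DESeq2 called 0 and 5, and with single libraries left out 0 to 6 were lower, with 0 without EKLF+/+ replicate 1 or EKLF-/- replicate 3, 1 without EKLF+/+ replicate 2 or 3, and 6 without EKLF-/- replicate 2. Of 15 chaperones, 0 were called in either direction by edgeR or DESeq2, and 0 had an unadjusted p under 0.05. Npm1 stood at 1669, 1845 and 1749 CPM in EKLF-/- and 1804, 1621 and 2127 in EKLF+/+ libraries, ranges that overlap (log2 fold change -0.08, SE 0.13, adjusted p = 0.688, edgeR). Hspd1 was as even, at 933, 954 and 940.1 and 955, 791 and 942 (log2 fold change 0.07, SE 0.12, adjusted p = 0.660, edgeR).

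Genes of red cell identity fell in part. Bcl11a, higher in members than in high-globin cells, stood at 50.2, 45.9 and 50.3 CPM in EKLF-/- and 166, 141 and 156 in EKLF+/+ libraries and fell (log2 fold change -1.66, SE 0.11, adjusted p = 3.36e-05, edgeR, lower in 3 of 3 libraries). Kit fell as well, from 194, 213 and 171 to 107, 86.4 and 109.5 (log2 fold change -0.93, SE 0.13, adjusted p = 0.00267, edgeR, lower in 3 of 3). Myb was lower too, from 239.5, 250.4 and 213 to 176, 176 and 181 (log2 fold change -0.40, SE 0.10, adjusted p = 0.0293, edgeR, lower in 3 of 3), but missed the threshold with the replicate block (adjusted p = 0.0715) and without EKLF+/+ replicate 1 (0.114), EKLF+/+ replicate 2 (0.0954) or EKLF-/- replicate 3 (0.0939), with adjusted p from 0.00591 to 0.114 over all settings. Of all genes, 10.6% fell and 9.72% rose. For the factors list, 12 of 20 genes fell and 0 rose, for membrane genes 15 of 22 fell and 0 rose, for late maturation 12 of 19 fell and 2 rose, and for heme synthesis 6 of 12 fell and 1 rose. Other erythroid lists were mixed. Iron genes had 3 of 14 lower and 3 higher, and early erythroid genes 7 of 18 lower and 2 higher. Epo and Kit signalling genes had 2 of 14 lower and 1 higher, which became 2 to 4 and 0 to 2 with a library left out. With single libraries left out, 9 to 14 factors, 13 to 17 membrane genes, 6 to 12 late maturation genes and 3 to 6 heme genes fell. Late maturation genes numbered 7, 6 and 7 without EKLF+/+ replicate 1, EKLF+/+ replicate 3 and EKLF-/- replicate 3, and heme genes 3 without each of the same libraries. By DESeq2 and at an unadjusted p under 0.05, 0 and 2 factors and 0 and 0 membrane genes were higher.

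Other genes counted in members, each at a higher level in high-globin cells (per 10000 of all counts, Gata1, Epor, Cited4 and Smim1 turn to a higher level in members), did not move in 1 direction. Car2 rose, from 1486, 1286 and 1843 CPM in EKLF+/+ to 3094, 3052 and 2824 in EKLF-/- libraries (log2 fold change 0.96, SE 0.15, adjusted p = 0.00451, edgeR, higher in 3 of 3). Cited4, a coactivator, rose from 229, 165 and 192 to 534, 694 and 619 (log2 fold change 1.66, SE 0.16, adjusted p = 0.000361, edgeR, higher in 3 of 3). Gata1 stood at 270.0, 267 and 261 in EKLF-/- and 232, 206 and 226 in EKLF+/+ libraries, which do not overlap but miss the threshold (log2 fold change 0.26, SE 0.10, adjusted p = 0.0881, edgeR). Epor, at 177, 178 and 179 and 229, 194 and 233, missed it as well (log2 fold change -0.30, SE 0.11, adjusted p = 0.0796, edgeR), and passed without EKLF-/- replicate 2 (adjusted p = 0.0457), with adjusted p from 0.0457 to 0.237 over all settings. The fall of Nxpe2 was among the deepest, from 225, 190.1 and 257 to 1.88, 1.61 and 1.46 (log2 fold change -7.07, SE 0.19, adjusted p = 2.27e-07, edgeR, lower in 3 of 3). Icam4, the adhesion protein by which erythroid cells hold macrophages, fell from 131, 116 and 132 to 29.9, 35.6 and 28.4 (log2 fold change -2.01, SE 0.12, adjusted p = 2.58e-05, edgeR, lower in 3 of 3), while Smim1, the Vel blood group gene, overlapped, with 184, 211 and 192 in EKLF-/- and 207, 188 and 205 in EKLF+/+ (log2 fold change -0.03, SE 0.10, adjusted p = 0.829, edgeR).

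**Figure D3:**
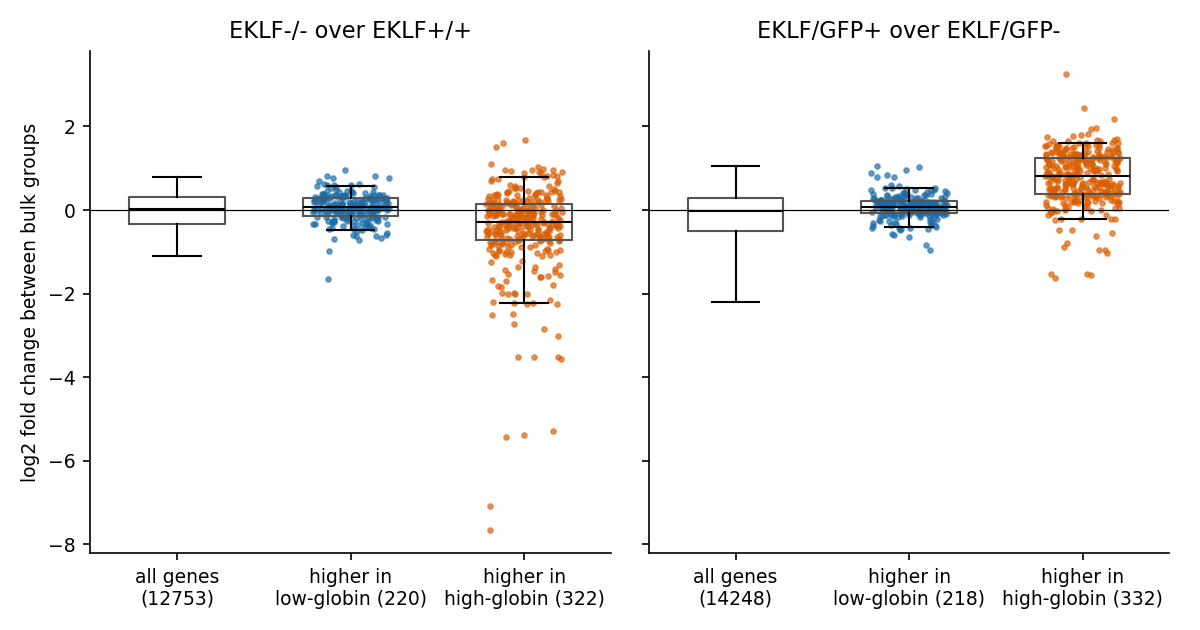
Log2 fold change of each gene between bulk groups (y axis) for all genes tested, for genes at least 2-fold higher in members and for genes at least 2-fold higher in high-globin cells (x axis, number of genes in brackets), in EKLF-/- over EKLF+/+ (left) and EKLF/GFP+ over EKLF/GFP- (right). Boxes span the quartiles with the median as a line, whiskers the 5th to 95th percentiles and points single genes of the latter 2 sets; genes of members centre on 0.07 and 0.08, genes of high-globin cells on -0.29 and 0.81.

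In cells sorted for the EKLF reporter, the same gene sets were looked up, again without a test of the difference between them. Of the genes higher in members, 218 were tested, and 38 (17.4%) were higher and 21 (9.63%) lower in EKLF/GFP+, against 18.9% and 25.8% of all 14248 genes tested, with a median log2 fold change of 0.08 where all genes had -0.01. The count of 38 was 59 by DESeq2 and 19 without EKLF/GFP- replicate 1. Of the genes higher in high-globin cells, 332 were tested, and 271 (81.6%) rose and 13 (3.92%) fell, with a median of 0.81. Without globin and rule genes, 254 of 315 rose. The 4 markers of the cells all rose. Epor stood at 101, 109 and 104 CPM in EKLF/GFP+ and 30.3, 41.6 and 29.7 in EKLF/GFP- libraries (log2 fold change 1.62, SE 0.14, adjusted p = 5.39e-05, edgeR, higher in 3 of 3), and Gata1 at 85.1, 81.5 and 85.5 and 31.5, 40.1 and 25.2 (log2 fold change 1.38, SE 0.16, adjusted p = 0.000225, edgeR, higher in 3 of 3).

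Within the genes of members, the reporter groups differed by gene. Npm1, at 1840.4, 2117 and 1826 in EKLF/GFP+ and 1581, 1893 and 1889 in EKLF/GFP-, overlapped (log2 fold change 0.11, SE 0.11, adjusted p = 0.447, edgeR), and 6 of 21 ribosome assembly genes rose and 0 fell by edgeR (0 fell by DESeq2 or at an unadjusted p under 0.05), 28.6% where 18.9% of all genes rose, with 2 to 5 rising when a library was left out, 2 without EKLF/GFP- replicate 1 and 3 without EKLF/GFP- replicate 3. Mthfd1 rose, with 455, 428 and 403 against 272, 308 and 272 (log2 fold change 0.59, SE 0.09, adjusted p = 0.000804, edgeR, higher in 3 of 3). Hmga1 fell, with 441, 355 and 349 against 549, 600.3 and 559 (log2 fold change -0.58, SE 0.11, adjusted p = 0.00296, edgeR, lower in 3 of 3). Bcl11a rose, with 102, 107 and 95.4 against 52.00, 61.1 and 63.8 (log2 fold change 0.78, SE 0.10, adjusted p = 0.000357, edgeR, higher in 3 of 3). The progenitor genes Myb and Kit, picked after their values were seen, went down. Myb stood at 226, 165 and 182 in EKLF/GFP+ and 388, 363 and 325 in EKLF/GFP- libraries (log2 fold change -0.91, SE 0.13, adjusted p = 0.000689, edgeR, lower in 3 of 3), and Kit at 140.0, 109 and 110.4 and 191, 166 and 156 (log2 fold change -0.52, SE 0.12, adjusted p = 0.00910, edgeR, lower in 3 of 3). Most genes of the early erythroid list went the other way, with 11 of 18 higher and 6 lower and a median log2 fold change of 0.94. Epo and Kit signalling genes had 9 of 14 higher and 3 lower. By list, where 18.9% of all genes rose and 25.8% fell, 17 of 20 erythroid factors rose and 1 fell in EKLF/GFP+, 20 of 22 membrane genes rose and 1 fell, and 17 of 19 late maturation and 12 of 12 heme genes rose. Some lists of other cell types differed as well, with 10 of 12 megakaryocyte genes higher and 2 lower, and 6 of 6 monocyte, 5 of 5 lymphoid and 5 of 7 endothelial genes lower in EKLF/GFP+. Macrophage genes went both ways, with 2 of 15 higher and 5 lower, and 2 to 7 higher when a library was left out. Hepatoblast genes had 0 of 8 called, while 1 of 6 mast cell or basophil and 1 of 4 mesenchymal genes were lower. Without EKLF/GFP- replicate 1, 2 or 3, only 3 lymphoid genes could be tested, and all 3 were lower.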

How the data were processed

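Single cells and bulk libraries of F4/80+ mouse fetal liver cells were used. The deposited bulk values with and without EKLF are a count of reads per gene, which the authors made with STAR and HTSeq. The deposited GFP values are an estimated count per transcript, which the authors made with Salmon, and the deposited single-cell values are an estimated count of molecules per gene and barcode, which the authors made with alevin. No versions are given for these tools, nor for DESeq2 and Seurat, which the authors used downstream, and the authors' normalized and log tables were not used. One EKLF+/+ file repeats 5 columns of other libraries, which were not used. The HTSeq summary lines, 67.2 to 72.7% of each library, were left out. Estimated counts were summed to genes and rounded for the bulk tests; those of single cells were kept as fractions.

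Levels in cells are counts per 10000 counts outside 14 globin genes, summed over a group, with exact 95% intervals that cover counting error only. Scrublet marked no cell, so no cell was removed as a doublet. Python 3.11.15, numpy 2.4.6, scipy 1.17.1, pandas 2.3.3 and scanpy 1.11.5 were used for cells, and clusters came from 4000 variable genes, 30 principal components, 20 neighbours and a Leiden resolution of 0.8. In bulk, genes that reached 10 counts in 3 or more libraries were tested with the quasi-likelihood test of edgeR 4.0.16 (TMM, R 4.3.3) with Benjamini-Hochberg adjustment at 0.05, and with DESeq2 1.42.0 as an alternative; each comparison used its own 6 libraries. Named genes are the 4 markers, markers named in the study, the 15 largest ratios in each direction, the 15 most abundant genes of members and up to 4 genes per list with the highest level in members; some of these are not reported here. The members and lists were chosen with earlier results of these data known. Alternatives were the limits of the cell rule, the scale, the minimum level, depth, other lineages, tool, normalization, filter, replicate block, globin genes and each library left out. An upper limit of genes per cell, embryonic globin, Scrublet scores and Y-linked counts were added after seeing the data.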

Additional observations from a re-analysis of the deposited data

How the results depend on the processing

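Among erythroid cells, the counts of 226 and 346 genes moved to 1051 and 70 per 10000 of all counts, with a median log2 ratio of 1.48 over 1442 genes; the denominator raises each ratio by 1.19, and the genes that reach the minimum level change with it. They moved to 861 and 797 with a minimum level of 0.2 per 10000, to 26 and 86 with a minimum of 5, and to 582 and 585 for the lowest against the highest of 3 equal sets of globin share. The median of erythroid transcription factors reversed to 0.27 per 10000 of all counts. Other medians changed sign on that scale too: markers to 0.32, early erythroid genes to 0.36, S phase to 1.08 and mitosis to 0.27. These medians are over the genes that reach the minimum on that scale. S phase was also positive with means of cells (0.48), a limit of 20 per 10000 (0.13) and the sets of globin share (0.67). Over all lists and settings, these 4 lists included, 39 medians moved and 192 did not. The 192 include 20 from leaving out cells marked by Scrublet, which marked no cell and so could move no median.

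In EKLF-/- against EKLF+/+, leaving out 1 library gave 346 to 1730 genes called higher and 575 to 1889 lower, 6 to 20 named genes higher and 25 to 44 lower, 1 to 35 genes of members higher and 2 to 28 lower, and 13 to 41 genes of high-globin cells higher and 79 to 138 lower. In EKLF/GFP+ against EKLF/GFP-, the ranges were 1916 to 2786 and 2822 to 3454, 61 to 75 and 18 to 22, 19 to 40 and 15 to 20, and 254 to 280 and 9 to 12. Fewer libraries leave less power, but why single libraries matter was not tested. With Y-linked counts as a term, chosen after seeing the data, 26 genes of members were higher in EKLF-/-, and by DESeq2 59 were higher in EKLF/GFP+; the cause was not tested. For the genes of the text, 1710 of the values in EKLF-/- kept their side of the threshold, 104 lost it and 40 gained it; in EKLF/GFP+ 1915, 28 and 33 did.

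With the replicate block, 5 genes of members were higher and 6 lower in EKLF-/-, and the cause was not tested. Libraries of the same number were not alike: the correlation of deviations between libraries of the same number was 0.0039, -0.019 and 0.019 for EKLF-/- with EKLF+/+ and 0.020, -0.146 and -0.027 for the GFP groups. Between other numbers of the GFP groups it reached 0.183, 0.224 and 0.131 (EKLF/GFP+ replicates 1, 2 and 3 with EKLF/GFP- replicates 2, 3 and 1). In that order, Y-linked RNA stood at 1.81, 472 and 439.7 CPM in the EKLF/GFP+ and 376, 1.14 and 459 CPM in the EKLF/GFP- libraries. A pairing in another order was not tested.

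With 1 single-cell library from 2 pooled embryos, differences between cells cannot be generalized to other embryos. Low counts limit what can be said of Kit, Myb and Gata2. Free globin RNA and undetected doublets were not removed, the bulk libraries mix cell types, and RNA kit and GFP group coincide.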
